A study of Mus musculus with 6 samples.

Results

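The 6 Kruppel-like factor genes Klf2, Klf3, Klf4, Klf6, Klf10 and Klf13 were followed in single invariant natural killer T (iNKT) cells of mouse liver, spleen and lymph node. They were found by symbol, 6 of the 27998 genes in the files and 6 of the 17 with a symbol of Klf and a number, and were chosen by their measured UMI levels across the 3 organs. Those levels are therefore given as a description, without a test. The groups were sorted iNKT cells of each organ from wild-type C57BL/6 mice aged 5 weeks, with 2 libraries per organ. CD8+ and B220+ cells had been depleted, and the remaining cells were sorted with a TCR-beta antibody and a CD1d tetramer. The labels do not give sex, batch or the number of mice per library, and they name the molecule as nuclear RNA. The 2 libraries of an organ are biological repeats by the study's methods.

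Kruppel-like factors are zinc-finger proteins that bind CACCC and GC-rich DNA. In T cells, Klf2 is known for maintaining quiescence and for activating S1pr1, the receptor for leaving tissue into blood. Klf3 recruits the CtBP corepressors, Klf4 limits T cell proliferation, Klf6 and Klf10 respond quickly to stimulation, Klf10 is induced by TGF-beta, and Klf13 (RFLAT-1) activates Ccl5. All 6 members had UMIs in every library.

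The libraries held 2638 to 2861 cells after filtering and 4768016 to 11086603 UMIs in all barcodes. Cells of liver were deeper, with medians of 3592 and 2880 UMIs against 1470 to 1730.5 in the other organs. Levels are therefore given as CPM, each library's UMIs scaled to the same total. Shares of cells with a UMI of a member are given after thinning each cell to 1000 UMIs, and unthinned shares are named as such. A UMI of any of the T cell markers Cd3d, Cd3e, Cd3g and Zbtb16 was found in 99.2% to 99.8% of cells. Zbtb16 alone had 258 to 714 UMIs per library. The liver and spleen libraries had Xist and no Y-chromosome RNA, while both lymph node libraries had Y-chromosome RNA and no Xist, so sex and organ cannot be told apart for the lymph node comparisons. Between any 2 libraries 6 to 20 cell barcodes were shared. Levels summed over cells of a library also cannot tell fewer cells of a type from less RNA per cell.

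Klf2 (ENSMUSG00000055148, chromosome 8, 72319033 to 72321656, plus strand, GRCm38), Klf4 (ENSMUSG00000003032, chromosome 4, 55527143 to 55532466, minus strand) and Klf6 (ENSMUSG00000000078, chromosome 13, 5861482 to 5870394, plus strand) are shown by the RefSeq promoter sequence before their start, since Klf2 stands for the genes higher in spleen and Klf4 and Klf6 for those higher in lymph node. The windows are cut where the GENCODE gene begins, which leaves 221 bases of Klf2 at chr8:72318812-72319032, 250 of Klf4 at chr4:55532476-55532725 and 243 of Klf6 at chr13:5861239-5861481 (GRCm38.p6, strands as above). Capitals mark any match to the motifs CACCC (KLF box), GGGCGG (GC box), TGACG (core of the cAMP response element, CRE), TGANTCA (AP-1), TGTTTAC (FOXO), MEF2 and the SRF CArG box, on either strand, and adjoining matches run together.

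Klf2: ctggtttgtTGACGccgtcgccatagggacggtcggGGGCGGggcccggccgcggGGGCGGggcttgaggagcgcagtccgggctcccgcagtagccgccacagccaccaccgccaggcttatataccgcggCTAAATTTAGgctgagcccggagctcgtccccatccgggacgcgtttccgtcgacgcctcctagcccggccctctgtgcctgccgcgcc
Klf4: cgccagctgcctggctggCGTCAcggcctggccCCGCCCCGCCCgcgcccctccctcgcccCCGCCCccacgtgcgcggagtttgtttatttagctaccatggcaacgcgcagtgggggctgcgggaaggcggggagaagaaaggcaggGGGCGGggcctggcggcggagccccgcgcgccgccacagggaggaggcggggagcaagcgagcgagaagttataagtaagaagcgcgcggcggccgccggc
Klf6: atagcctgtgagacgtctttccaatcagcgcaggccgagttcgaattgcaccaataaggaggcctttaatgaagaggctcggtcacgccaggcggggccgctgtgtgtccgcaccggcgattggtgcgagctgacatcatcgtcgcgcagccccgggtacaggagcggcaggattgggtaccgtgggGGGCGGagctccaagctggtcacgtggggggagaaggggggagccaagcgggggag

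The Klf2 window alone held a MEF2 match, CTAAATTTAG, 118 bases before the RefSeq start, a motif found in 2.92% of 32851 promoter windows of 250 bases. Klf2 had 2 GC boxes, Klf4 had 4 and Klf6 had 1 (32.7% of windows hold one). Klf2, Klf4 and Klf13 each had 1 CRE core (17.8% of windows). None of the 5 members with a RefSeq promoter held an AP-1 (6.75%) or CArG (1.47%) match in this window. A match is a run of letters, not a bound site, and a window without one says only that these letters are not there. Over the whole window of 250 bases, Klf3 held 6 GC boxes and 5 KLF boxes, and Klf2 and Klf13 held 1 KLF box each, that of Klf2 in the part cut off.

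Klf2 and Klf3 were highest in spleen. Klf2 reached 347 and 308 CPM in the spleen libraries, 168 and 140.4 CPM in liver, and 149 and 182 CPM in lymph node. The spleen libraries stood above all others, and the liver and lymph node ranges overlapped. As a mean ± SD of 2 libraries, Klf2 was at 154 ± 19.9 CPM in liver, 327.5 ± 27.5 CPM in spleen and 166 ± 23.2 CPM in lymph node. The fitted log2 fold (edgeR, TMM scaling) was −1.17 for liver over spleen, 1.00 for spleen over lymph node and −0.16 for liver over lymph node.

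Klf3 (ENSMUSG00000029178, chromosome 5, 64803388 to 64832901, plus strand) had 282 and 254 CPM in spleen, 189 and 172 CPM in liver, and 66.2 and 57.4 CPM in lymph node. The 3 organs did not overlap, with mean levels of 268 ± 19.4 CPM in spleen, 180.4 ± 12.1 CPM in liver and 61.8 ± 6.28 CPM in lymph node (SD, n = 2). The fitted log2 fold was 2.13 for spleen over lymph node, 1.48 for liver over lymph node and −0.65 for liver over spleen. Klf3 overlaps a predicted gene on its own strand and an antisense gene on the other, and reads of these cannot be told apart from its own if they were counted together.

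Klf4 was near the limit of detection in liver and spleen and clearly detected in lymph node. Liver gave 15 and 12 Klf4 UMIs (2.15 and 1.99 CPM), spleen gave 13 and 9 (3.40 and 2.53 CPM), and lymph node gave 272 and 270 (73.8 and 74.8 CPM). As mean ± SD of 2 libraries, Klf4 was at 2.07 ± 0.107 CPM in liver, 2.97 ± 0.617 CPM in spleen and 74.3 ± 0.692 CPM in lymph node. The lymph node mean was 35.9-fold the liver mean and 25.1-fold the spleen mean. Myeloid cells also express Klf4, and their markers are given for this reason. The summed level of the myeloid list was 285 and 357 CPM in lymph node against 199.5 to 241 CPM elsewhere, most of it Cst3. In the lymph node libraries Lyz2 was at 9.50 and 109 CPM, Cd68 at 2.99 and 5.54 CPM (0.523 to 2.66 CPM elsewhere), Csf1r at 0 and 0.554 CPM and Adgre1 at 0 in both. A cluster of 24 cells that Lyz2 leads, described further on, held 1 and 0 of the Klf4 UMIs of these libraries. The part of myeloid cells in the Klf4 level was not tested.

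Klf6 was lowest in spleen, with 98.6 and 70.3 CPM, against 163 and 137 CPM in liver and 156 and 145 CPM in lymph node. Liver and lymph node overlapped, at 149.96 ± 18.7 and 150.5 ± 8.29 CPM (mean ± SD, n = 2), while spleen was at 84.5 ± 20.1 CPM. The fitted log2 fold was 0.74 for liver over spleen and −0.81 for spleen over lymph node.

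Klf10 (ENSMUSG00000037465, chromosome 15, 38291463 to 38300706, minus strand) was lowest in liver (15.7 and 20.1 CPM), followed by spleen (34.3 and 44.7 CPM) and lymph node (106 and 118 CPM), with no overlap between the organs. Its mean ± SD (n = 2) was 17.9 ± 3.09, 39.5 ± 7.36 and 112 ± 8.80 CPM in that order. The fitted log2 fold of liver over lymph node was −2.71. Klf13 (ENSMUSG00000052040, chromosome 7, 63886351 to 63938915, minus strand) had 327 and 340.0 CPM in lymph node against 194 and 236 CPM in liver and 231 and 193 CPM in spleen. Liver and spleen overlapped, at 215 ± 30.3 and 212 ± 27.0 CPM (mean ± SD, n = 2), and lymph node was at 334 ± 9.11 CPM. Genes on the opposite strand overlap Klf13, and their reads are separate only if strand was used in counting. The fitted log2 fold of liver over lymph node was −0.69.

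The libraries of liver and spleen did not overlap for 5 of the 6 members, those of liver and lymph node for 4, and those of spleen and lymph node for 6. Non-overlap was found for 63.2%, 70.2% and 57.4% of all genes tested in those comparisons. Since the members were chosen for these levels, nothing is read from the counts. Spleen and lymph node were thus ordered in opposite ways for Klf2 and Klf3 (spleen higher) and for Klf4 and Klf6 (lymph node higher), as the choice of the members intended.

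**Figure D1:**
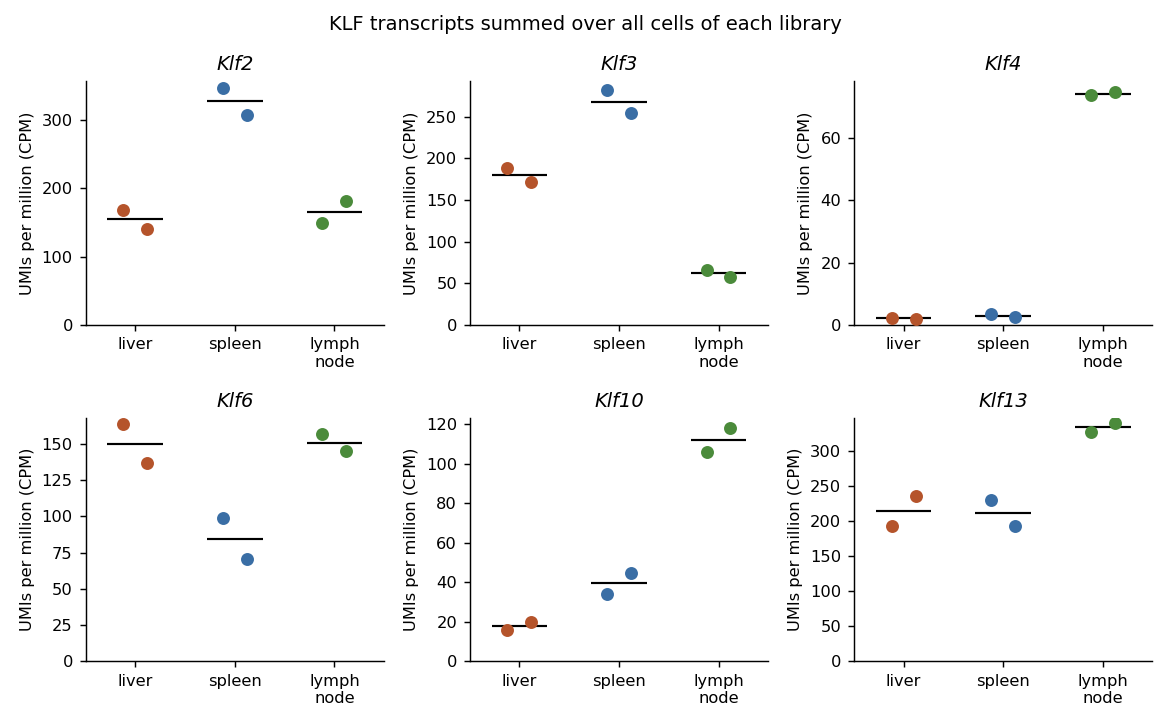
Level of each gene in CPM (vertical axes, from 0) in the 2 libraries of liver, spleen and lymph node (points, replicate 1 at the left), with the mean as a bar. Klf2 and Klf3 are highest in spleen, and Klf4 is at 1.99 to 3.40 CPM outside lymph node and at 73.8 and 74.8 CPM in it.

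Cells with a UMI were counted after thinning each cell to 1000 UMIs, which left out 0 and 9 cells of the liver libraries, 144 and 169 of spleen, and 265 and 488 of lymph node. Klf2 then had a UMI in 16.2% and 15.2% of spleen cells, 8.10% of cells in both liver libraries, and 9.36% and 10.9% of lymph node cells. The Klf3 share was 18.3% and 17.8% in spleen, 11.4% and 11.2% in liver, yet 4.97% and 4.58% in lymph node. Klf4 was in 0.107% to 0.241% of liver and spleen cells and in 5.10% and 5.51% of lymph node cells. No class of cells known to lack these genes was at hand, so the low Klf4 shares are not read as expression.

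The order of the organs by share of cells depended on depth for Klf2, Klf3, Klf6 and Klf13. Without thinning, Klf2 was found in 19.5% and 16.5% of liver cells against 14.8% and 15.7% of lymph node cells, the reverse of the order at 1000 UMIs. The unthinned Klf3 shares of liver (33.6% and 28.1%) and spleen (30.1% and 26.4%) overlapped, whereas the thinned shares of spleen were the higher. Without thinning, Klf6 was found in 31.7% and 23.1% of liver cells and 18.5% and 15.7% of lymph node cells, yet at 1000 UMIs in 10.0% and 9.08% against 10.96% and 10.47%. The Klf13 share at 1000 UMIs was largest in lymph node (21.6% and 23.7%), ahead of liver (12.9% and 16.2%) and spleen (15.1% and 12.6%). Unthinned shares were 25.1% and 23.7% in spleen for Klf2 and 8.49% and 6.53% in lymph node for Klf3. Over the 6 libraries they were 0.339% to 8.38% for Klf4 and 3.64% to 12.96% for Klf10. For Klf13 they were 36.8% and 37.6% in liver, 34.8% and 33.3% in lymph node and 25.5% and 21.1% in spleen. At 1000 UMIs Klf10 was found in 7.21% and 8.05% of cells from lymph node, against 1.82% and 2.78% from spleen and 0.964% and 1.19% from liver.

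Cells were then clustered without any Klf gene, and clusters took names only where fixed markers led them. Named classes were iNKT1-like (4492 cells, mostly liver), iNKT17-like (2009, mostly lymph node), recent thymic emigrant-like (RTE-like, 1168), Gzma-like (589), cycling (442), interferon-responding Ifit-like (372) and NF-kB-like (368). The iNKT1-like name rests on 3 markers 2-fold up and does not take in all iNKT1 cells. Gzma-like cells had a higher median log2 fold of the iNKT1 markers (0.91 against 0.80). Summed iNKT1 markers were at 3827 and 3639 CPM in spleen, against 5058 and 5551 CPM in liver. In lymph node they were at 1496 and 1459 CPM. The paper also assigned its main spleen and lymph node clusters to iNKT1. A cluster of 24 cells was led by Lyz2, the class II gene H2-Aa and the B cell gene Cd79a and is left without a name, since Lyz2 is a myeloid gene. Cluster 1 (4135 cells, mostly spleen) and cluster 2 (2887 cells, mostly lymph node, led by Ccl1 and Nrgn with the immediate early genes Dusp1 and Nr4a1) had no name. The class levels come from the cells that were clustered and are a description.

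Among the T cell classes, Klf2 was high in Gzma-like and RTE-like cells. The 12 cells of liver replicate 2 in the cluster that Lyz2 leads had more, 1833 CPM. In RTE-like cells it was at 558 and 235 CPM in liver, 647 and 622 CPM in spleen, and 736 and 895 CPM in lymph node. It exceeded the pooled other cells of the library in 6 of 6 libraries, by a median log2 ratio of 1.58 (0.79 to 2.59). In Gzma-like cells it was at 719.8 and 522 CPM in liver and 1140.4 and 975 CPM in spleen, with a median log2 ratio of 2.15 over 5 libraries with at least 20 such cells. At clustering resolution 0.3 the cluster of that name took in 2566 and 2403 liver cells, and the ratio was then below 0 in both liver libraries (−1.44 and −0.84). The RTE-like list holds S1pr1 and Ccr7, so the class was named in part from genes that Klf2 is known to activate.

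RTE-like cells made up 14.7% and 11.8% of spleen cells, 2.68% and 4.72% of liver cells and 4.97% and 3.93% of lymph node cells. They held 36.4% and 34.1% of all Klf2 UMIs in spleen. RTE-like spleen cells were deeper, with medians of 2604.5 and 2703 UMIs against 1724 and 1554 over all spleen cells. Their share of all UMIs is therefore larger than their share of cells. Without RTE-like and Gzma-like cells, Klf2 was at 218 and 213 CPM in spleen, 136 and 113 CPM in liver, and 121 and 152 CPM in lymph node, so spleen remained above the other organs with a smaller gap.

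The iNKT17-like cells had 156 CPM of Klf2 in both lymph node libraries (863 and 1008 cells). In liver they had 727 and 549 CPM (21 and 33 cells), and in spleen 709 and 438 CPM (51 and 33 cells). The liver and spleen levels rest on 25 to 62 UMIs each.

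Among classes with at least 20 cells, Klf4 in lymph node was highest in iNKT17-like cells, at 145 and 134 CPM, against 41.4 and 43.1 CPM in cluster 2, 25.4 and 17.7 CPM in RTE-like cells and 4.96 and 4.62 CPM (1 UMI each) in cycling cells. These iNKT17-like cells were 32.7% and 35.4% of lymph node cells and held 68.0% and 68.1% of the Klf4 UMIs. Without them, Klf4 was still at 36.2 and 38.4 CPM in the lymph node libraries, against 2.02 to 2.57 CPM in liver and spleen.

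Klf3 was lower in cycling cells than in the other cells of the library in 6 of 6 libraries, by a median log2 ratio of −0.98 (−1.09 to −0.73). In RTE-like cells Klf3 was at 88.9 and 79.8 CPM in lymph node against 131 to 232 CPM in liver and spleen, and lymph node was likewise below both other organs in cycling, iNKT1-like and iNKT17-like cells. The organs overlapped in Ifit-like cells (100.2 and 85.4 CPM in lymph node, from 92.4 CPM in liver). They also overlapped in cluster 1 (54.9 and 167 CPM in lymph node, from 107 CPM in liver) and in cluster 2 (73.4 and 60.6 CPM in lymph node, from 70.4 CPM in spleen). Klf13 was lower in cycling cells in 6 of 6 libraries (median log2 ratio −0.77) and in Ifit-like cells in 6 of 6 (−0.41), and higher in RTE-like cells in 6 of 6 (0.31). In RTE-like cells of lymph node Klf13 was at 578 and 514 CPM, against 223 to 279 CPM in those of liver and spleen. NF-kB-like cells had less Klf2 (−1.30), Klf3 (−1.39) and Klf13 (−1.17) in 4 of 4 libraries with at least 20 such cells.

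Klf3 was at 325 and 289.9 CPM in cluster 1 of spleen, which Klf3 itself is among the 10 leading genes of, and at 73.4 and 60.6 CPM in cluster 2 of lymph node. iNKT1-like cells had more Klf3 than the other cells of their library in 6 of 6 libraries, by a median log2 ratio of 0.41, with 209 and 198.5 CPM in liver. In spleen the other cells were mostly cluster 1, so the ratio does not set iNKT1 cells against all others. With clusters made without regression, Klf3 was higher in these cells in 3 of 4 libraries, and the lowest log2 ratio was −0.41. In iNKT17-like cells of lymph node Klf3 was at 53.2 and 48.9 CPM, close to the level of the whole organ.

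Klf10 in lymph node was at 129 and 149 CPM in cluster 2 and at 62.6 and 89.8 CPM in iNKT17-like cells, so the class that led for Klf4 did not lead for Klf10. In RTE-like cells Klf10 overlapped between spleen (65.8 and 81.5 CPM) and lymph node (69.8 and 62.0 CPM), and both liver libraries lay below them, at 60.5 and 31.6 CPM. Klf6 was at 170 and 159 CPM in iNKT17-like cells of lymph node and 149 and 138 CPM in cluster 2, and at 168 and 152 CPM in iNKT1-like cells of liver. Cycling cells of lymph node had less, 64.5 and 87.8 CPM.

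**Figure D2:**
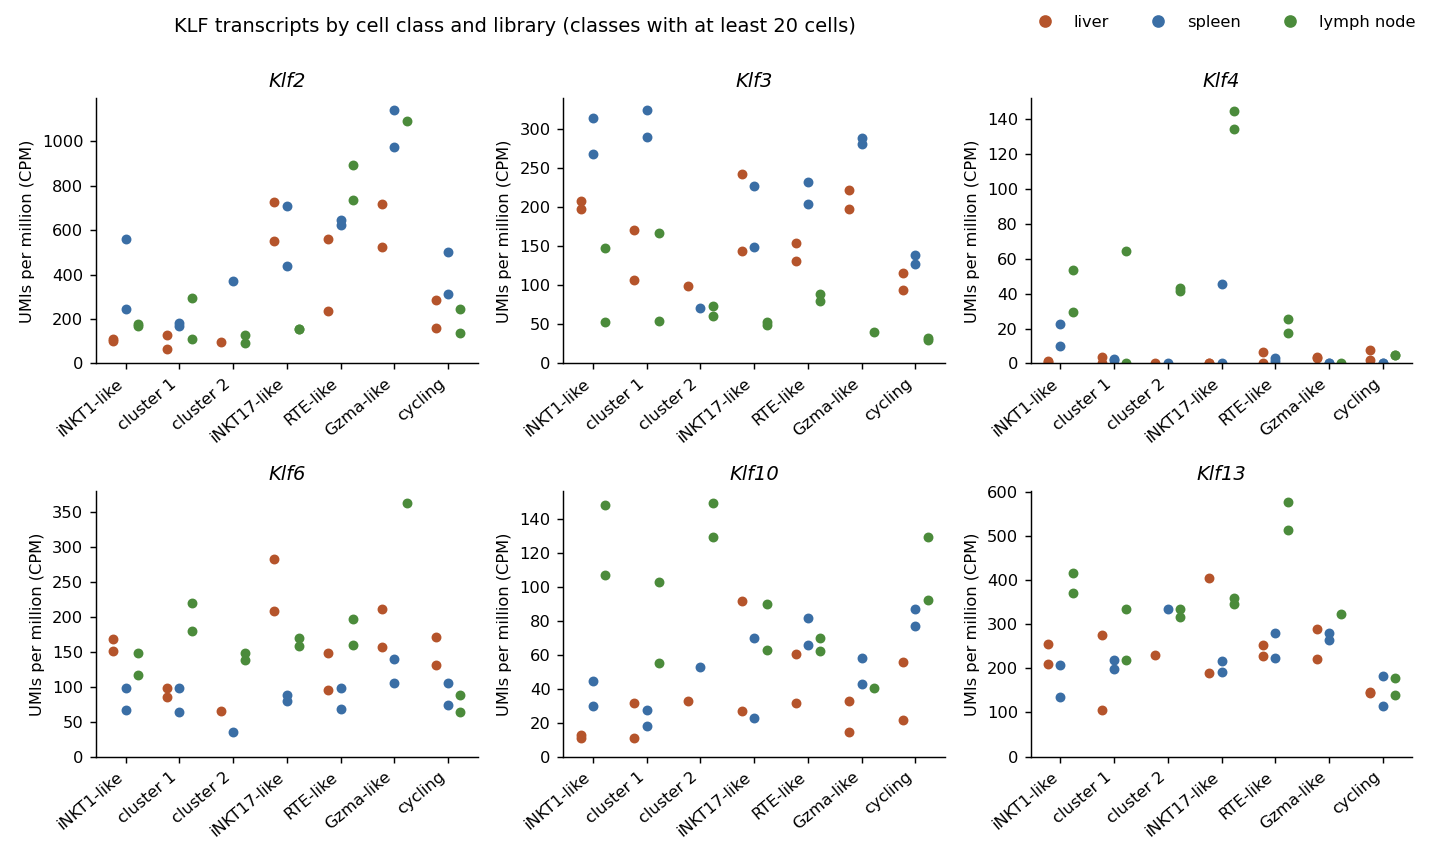
Level of each gene in CPM (vertical axes, from 0) in 7 of the classes or unnamed clusters (horizontal axes), 1 point per library with at least 20 such cells, coloured by organ. The Klf2 points of Gzma-like cells, from 522 CPM upward, lie above all of cluster 1, and the Klf4 points of lymph node iNKT17-like cells, at 145 and 134 CPM, lie above all others.

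The immediate early genes, transcribed within minutes of stimulation, were compared with the members because Klf4, Klf6 and Klf10 belong to that kind of gene. Of 23 tested genes of a fixed list, 20 were higher in lymph node than liver and 21 higher in lymph node than spleen by edgeR's quasi-likelihood test at an adjusted p below 0.05. Ier3 was called higher in liver than lymph node, a call lost with DESeq2. Among all 10173 genes, 19.6% and 10.3% were called higher in lymph node in those comparisons, against 18% higher in liver and 7.97% higher in spleen. Between liver and spleen, 12.7% were higher in liver and 13% higher in spleen. Of the calls between liver and spleen, 1291 of 2611 genes were higher in liver, and 63.3% of calls were higher in liver with no scaling beyond the library total. Fos was at 561 and 586 CPM in lymph node against 13.2 and 8.47 CPM in liver (log2 fold −5.78 ± 0.16 SE, adjusted p = 2.8e-24, edgeR). The median log2 fold of the list was −1.93 for liver over lymph node, against 0.01 over all genes, and −1.74 for spleen over lymph node. Against spleen, liver had 2 higher and 8 lower of the 23. DESeq2 called 8 of these genes, the call of Nr4a2 was lost on leaving out any 1 library, and those of Ppp1r15a, Dusp2, Jund and Ier5 on leaving out some. The call of Ppp1r15a was also lost with DESeq2, with a replicate block and with no scaling beyond the library total. That of Dusp2 was also lost with no scaling beyond the library total and with libraries thinned to one total. Dusp1, a phosphatase of MAP kinases, was at 1000.5 and 1128 CPM in lymph node against 75.8 and 53.2 CPM in liver and 141 and 111 CPM in spleen. Fosb, a partner of JUN proteins, was at 73.0 and 84.0 CPM in lymph node against 3.40 and 2.53 CPM in spleen.

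Within each library, cells were ranked by their summed immediate early UMIs and split into 3 equal parts. Klf4 was in 7.84% and 7.89% of the top part of lymph node cells and in 2.91% and 3.18% of the bottom part. Klf10 was in 10.2% and 12.3% against 5.06% and 5.22%, and Klf6 in 13.9% and 12.98% against 8.72% and 9.16%. Outside lymph node Klf4 differed by at most 0.421 points and Klf10 by at most 0.536 points. Klf6 was lower in the top part in both liver libraries, with differences of −2.36 and −1.79 points. Mean immediate early UMIs per 1000 were 9.22 and 9.80 in lymph node cells against 1.88 to 2.93 elsewhere.

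**Figure D3:**
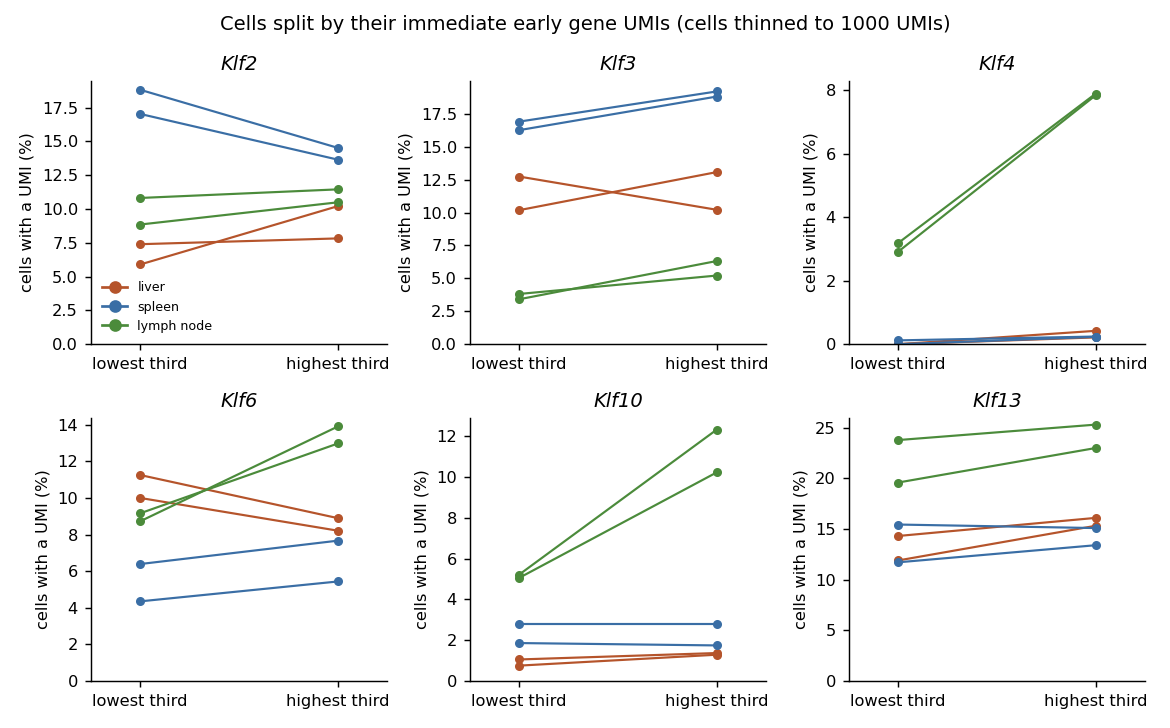
Percentage of cells with a UMI of each gene (vertical axes, from 0) in the lowest and highest of 3 equal parts of each library's cells ranked by immediate early UMIs, with 1 line per library coloured by organ. In both lymph node libraries Klf4 is at 2.91% and 3.18% in the lowest part and at 7.84% and 7.89% in the highest. Klf10 and the other members are likewise higher there.

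Genes that Klf2 is known to activate for trafficking were then counted. For liver against spleen, 2 of 4 were called, both higher in spleen, and 25.7% of all genes were called in either direction. For liver against lymph node, 3 were higher in lymph node and 1 higher in liver (37.6% of all genes called). For spleen against lymph node none was called by edgeR or DESeq2, with 1 at an unadjusted p below 0.05, where 18.3% of all genes were called. Ccr7, the receptor for lymph node entry, was at 10.3 and 9.97 CPM in liver against 31.7 and 29.8 CPM in spleen (log2 fold −1.68 ± 0.20 SE, adjusted p = 2.3e-07). S1pr1, the egress receptor, was at 26.3 and 27.2 CPM in liver against 52.6 and 54.2 CPM in spleen (−1.08 ± 0.15, adjusted p = 2.4e-06) and 49.7 and 50.7 CPM in lymph node. Itgb7, an integrin of gut homing, was lower in liver than in lymph node (335 and 290.4 against 435.5 and 431 CPM), and S1pr4, another sphingosine receptor, was higher in liver (179 and 146 against 115 and 109 CPM), a call lost without liver replicate 1. The median log2 fold of the list was −0.69 for liver over spleen, against 0.02 over all genes. Klf2 itself was higher in spleen than in lymph node, while these genes were not called between those organs.

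In single cells Klf2 went together with the trafficking list taken as a whole. Over all libraries Itgb7 and S1pr4 had 9952 and 3927 UMIs, against 1108 for S1pr1 and 575 for Ccr7. The split therefore rests mostly on the first 2 genes, and it does not show the relation for each gene. Among cells thinned to 1000 UMIs, Klf2 was in 22.7% and 20.9% of spleen cells with a trafficking-list UMI and in 13.2% and 12.7% of those without. The difference was positive in 6 of 6 libraries, from 2.83 to 9.59 points. It is a description, since RTE-like cells carry both.

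Of the genes known to rise when Klf2 is lost, 3 were tested. Called were 1 higher in liver than spleen (median log2 fold 0.19), 1 higher and 1 lower in liver than lymph node (−0.16), and 1 higher and 1 lower in spleen than lymph node (0.01), where 25.7%, 37.6% and 18.3% of all genes were called. Cxcr3, the receptor for interferon-induced chemokines, was at 507 and 522 CPM in liver, 477 and 380 CPM in spleen and 210 and 178 CPM in lymph node (liver over lymph node 1.34 ± 0.12 SE, edgeR adjusted p = 1.6e-10). It was higher in liver and spleen than in lymph node. Cd69, which counters S1pr1, was higher in lymph node than in spleen (132 and 160 against 81.1 and 76.7 CPM). The call higher in liver than spleen was also Cd69 (log2 fold 0.37 ± 0.13 SE, edgeR adjusted p = 0.037), and it was lost with DESeq2, with thinned libraries and without liver replicate 2 or either spleen library. Its call as higher in lymph node than liver was lost without liver replicate 1 or lymph node replicate 2. Il4 was called in no comparison.

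**Figure D4:**
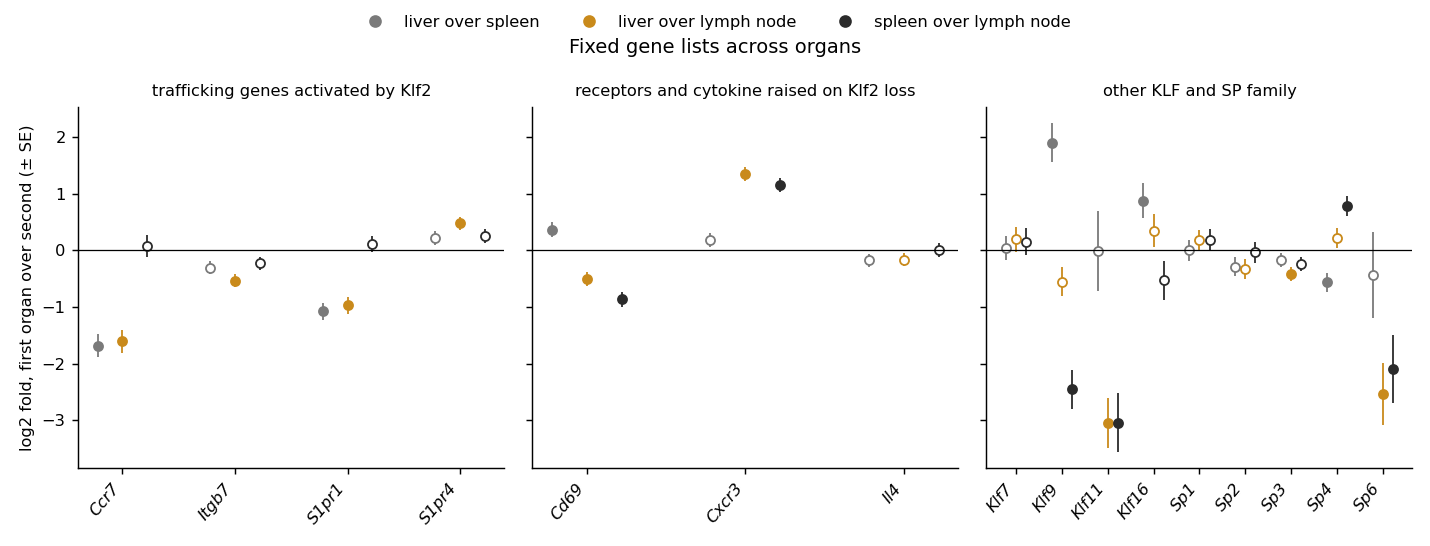
Log2 fold of the organ named first over the other (vertical axis, edgeR fit, bars ± 1 SE) for genes of 3 fixed lists, filled where called at an adjusted p below 0.05 and open otherwise. Ccr7 and S1pr1 lie below 0 in both comparisons with liver, and Klf11 lies at −3.05 and −3.04 in those with lymph node.

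Other members of the KLF and SP families were mostly at few UMIs, with 9 of 20 passing the filter on low counts. Klf11, a TGF-beta-inducible relative of Klf10, was at 1.29 and 0.664 CPM in liver, 1.05 and 0.843 CPM in spleen and 8.69 and 7.48 CPM in lymph node (liver over lymph node −3.05 ± 0.44 SE, edgeR adjusted p = 1.3e-06). Klf9, a glucocorticoid-responsive factor, was at 22.9 and 11.3 CPM in liver, 5.49 and 3.09 CPM in spleen and 22.5 and 25.8 CPM in lymph node (spleen over lymph node −2.45 ± 0.34, adjusted p = 1.2e-05). Between liver and spleen, 2 of the 9 were called higher in liver and 1 in spleen (median log2 fold −0.01, against 0.02 over all genes). Against lymph node, 3 were called lower in liver (median −0.33, all genes 0.01), and 3 lower and 1 higher in spleen (median −0.24, all genes 0.00). The called shares of this list were 33.3%, 33.3% and 44.4%, against 25.7%, 37.6% and 18.3% of all genes. Klf7, Sp1 and Sp2 were called in none. The calls of Klf16, of Sp4 between liver and spleen and of Sp6 between spleen and lymph node were lost with DESeq2. Klf8 had 9 UMIs and Sp9 had 6 over all libraries, Klf1, Klf5 and Klf12 had 1 each, and Klf14, Klf15, Klf17, Sp5, Sp7 and Sp8 had none.

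Upstream regulators followed. Of 16 tested genes for MEF2, SRF, FOXO and kinase or deacetylase regulators, 4 were called higher in liver than spleen and none lower (median log2 fold 0.27), 4 higher and 1 lower in liver than lymph node (0.29), and 2 higher and 2 lower in spleen than lymph node (0.03). Over all genes 25.7%, 37.6% and 18.3% were called in these comparisons, against 25%, 31.2% and 25% of this list. With DESeq2 the calls between liver and spleen fell to 1, as Mef2d, Map2k5 and Hdac7 lost theirs, and those between spleen and lymph node to 2. Hdac7, a class IIa deacetylase that represses MEF2, was at 83.8 and 59.5 CPM in liver, 46.3 and 51.7 CPM in spleen and 24.98 and 22.73 CPM in lymph node (liver over lymph node 1.52 ± 0.17 SE, edgeR adjusted p = 6.2e-09). Mkl1, a coactivator of SRF, was at 38.5 and 32.4 CPM in liver against 19.9 and 15.5 CPM in spleen and 18.7 and 18.3 CPM in lymph node, and its relative Mkl2 was at 13.7 and 15.4 CPM in liver against 30.4 and 28.5 CPM in lymph node. Foxo1, a known activator of Klf2, was called in none. Of 5 enzymes acting on KLF proteins, 2 were called lower in liver than spleen (median −0.17), 2 lower in liver than lymph node (0.01), and 1 higher and 1 lower in spleen than lymph node (−0.34). DESeq2 called 1, 1 and 2 of the 5. Wwp1, a ubiquitin ligase for Klf2, was at 76.7 and 70.3 CPM in spleen against 45.9 and 36.5 CPM in liver and 31.2 and 33.5 CPM in lymph node, so spleen was highest, as for Klf2. Siah1a was called in all 3, but its call between liver and spleen was lost on leaving out any 1 library.

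Among 12 cofactors, 1 was called higher and 1 lower in liver than spleen (median log2 fold −0.17), 2 higher and 2 lower in liver than lymph node (−0.05), and 1 lower in spleen than lymph node (0.09), so 16.7%, 33.3% and 8.33% of the list were called against 25.7%, 37.6% and 18.3% of all genes. DESeq2 called none of the 12 between liver and spleen, where 3 had an unadjusted p below 0.05 with edgeR, and 2 between liver and lymph node. Fhl3, a partner of Klf3, was at 20.1 and 19.1 CPM in lymph node against 6.87 and 8.31 CPM in liver and 9.16 and 9.56 CPM in spleen. Ctbp1, the Klf3 corepressor, was called in none. In the TGF-beta pathway, of 9 genes 4 were called higher and 1 lower in liver than spleen (0.42), 2 higher and 3 lower in liver than lymph node (0.28), and 1 higher and 3 lower in spleen than lymph node (−0.05). These were 55.6%, 55.6% and 44.4% of the list, against 25.7%, 37.6% and 18.3% of all genes. Between liver and spleen DESeq2 called 1, since Tgfbr2, Smad2, Smad7 and Ski lost their calls with it, as each also did on leaving out liver replicate 1. Skil, a TGF-beta target and SMAD repressor, was at 124 and 134 CPM in lymph node against 27.0 and 35.1 CPM in liver and 33.5 and 34.0 CPM in spleen, so lymph node was highest, as for Klf10. Smad7, the inhibitory SMAD, was at 60.0 and 52.4 CPM in lymph node against 31.4 and 26.4 CPM in spleen (spleen over lymph node −0.94 ± 0.16 SE, edgeR adjusted p = 4.1e-05). Smad3, a mediator of the signal, ran the other way, at 38.9 and 35.7 CPM in liver against 19.5 and 18.0 CPM in lymph node, and so did Tgfbr2, the receptor, at 66.2 and 60.3 against 36.4 and 33.5 CPM.

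Of 6 reported KLF target genes, 3 were called higher and 2 lower in liver than spleen (median log2 fold 0.22), 2 higher and 3 lower in liver than lymph node (−0.48), and 1 higher and 4 lower in spleen than lymph node (−0.65), where 25.7%, 37.6% and 18.3% of all genes were called. Between liver and spleen DESeq2 called 2, as Cdkn1a, Cdkn1b and Socs3 lost their calls. Ccl5, which Klf13 activates, was at 776 and 752 CPM in lymph node against 4988 and 4005.5 CPM in liver and 5505 and 4808 CPM in spleen (spleen over lymph node 2.77 ± 0.14 SE, edgeR adjusted p = 6.2e-17). Klf13 was higher in lymph node, so the level of the factor and of this target ran in opposite directions. Lgals3, galectin-3, was at 492 and 566 CPM in lymph node, 190.0 and 166 CPM in spleen and 74.1 and 89.1 CPM in liver. Cdkn1b, the p27 cell cycle inhibitor, was at 189 and 179.9 CPM in lymph node against 106 and 91.4 CPM in liver. Cdkn1a, a cell cycle inhibitor activated by Klf4 and Klf6, was at 59.5 and 49.6 CPM in lymph node against 0.281 to 4.86 CPM elsewhere.

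Likeness was measured by Pearson's r of log2(CPM + 1) over 37 cluster-by-library sums of at least 50 cells, which share libraries and depth, among 5882 genes. The genes nearest to Klf2 were Rasgrp2 (r = 0.83), Arl4c, Cast, Sike1 and Emp3. Those nearest to Klf3 were Sept1 (0.82), Gimap1, Gimap6, Ccl5 and Cd3d. Klf4 was nearest to Zfp36l1 (0.82), Ptp4a1, Junb, Ppp1r15a and Jun, Klf6 to Pnrc1 (0.68), Pik3ip1, Tsc22d3, Txnip and Foxp1, Klf10 to Capg (0.77), Ccr10, Slc25a4, Hnrnpl and the Y-linked Eif2s3y, and Klf13 to Cdkn1b (0.82), Ets1, Bnip3l, Cited2 and Selk. The sums span the 3 organs whose levels chose the members, so likeness repeats that contrast in part and nothing is read from it.

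Within a library, UMIs of 2 members were compared with what their shares imply. Klf6 and Klf13 went together in 6 of 6 libraries with a median log2 odds ratio of 0.28. Klf4 and Klf6 could be compared in the 2 lymph node libraries only, from 0.42 to 0.66. At these UMI counts such small values are no finding.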

How the data were processed

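Libraries of the 10x 3′ kit (v2) were aligned to mm10 by the authors with Cell Ranger 3.1.0; the deposited matrices hold raw UMI counts per gene and barcode, and the other deposited files hold barcodes and gene names. The gene annotation behind them is not given in the sources used here; coordinates are from GENCODE vM21 (release 21). Barcodes with under 300 or over 4000 genes or over 15% mitochondrial UMIs, the study's limits, were left out (55 of 16587), and 188 ribosomal, rRNA and haemoglobin genes were removed. Doublets were not called. UMIs were summed per library and compared with edgeR 4.0.16 (filterByExpr, TMM, robust quasi-likelihood, Benjamini-Hochberg over 10173 genes), with all 6 libraries in 1 fit and n = 2 per organ. The fit was first tested on simulated data. Clusters came from scanpy 1.11.5 and leidenalg 0.10.2 (3000 variable genes, 20 components, resolution 0.5). A name needed a median log2 marker fold of 1 (0.5 for iNKT1-like), 3 markers 2-fold up and 1 among the 10 leading genes; these thresholds were set after the clusters were seen. Class ratios and odds needed 5 observed or expected UMIs, a limit also set after the values were seen. The members and the gene lists were chosen with earlier results of these data known. A few list genes are not reported here and were left out of the counts, medians and cell splits of their lists. Of each list at most the 4 called genes of largest fold are described, with some uncalled genes and a few others named after their values were seen. p-values measure the spread between libraries of an organ. Alternatives were other scalings, DESeq2 1.42.0, filters, thinning, a replicate block and leaving out each library.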

Additional observations from a re-analysis of the deposited data

Results flagged for a closer look

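Several within-library contrasts ran one way in both libraries of an organ and the opposite way in both libraries of another. The differences between organs were not tested, each organ has only 2 libraries, and many contrasts were examined.

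RTE-like cells had more Klf10 than the other cells of their library in liver and spleen and less in lymph node, with mean log2 ratios apart by 2.15 (liver against lymph node) and 1.93 (spleen against lymph node). The liver value rests on 9 and 7 UMIs. For Klf3 the RTE-like contrast ran the other way, with differences of −0.85 and −0.88, being positive in lymph node. For Klf3 the liver libraries were split when clusters were made without regression (0.41 and −0.16). For Klf6 the RTE-like differences were −0.59 and −0.30, the latter resting on spleen ratios of −0.04 and −0.004. The Klf6 directions did not hold in other clusterings, since RTE-like cells had more Klf6 than the others in 5 of 6 libraries without regression and in 4 of 6 at resolution 1.0, against 2 of 6 here. Klf6 in cycling cells was above the other cells in spleen and below them in lymph node, apart by 1.12. Without regression it was below the other cells in 6 of 6 libraries, so the opposite directions were not seen.

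For cells with many against few immediate early UMIs, the share with Klf2 was higher in liver and lower in spleen, apart by 6.21 points, and the spleen difference was below that of lymph node by 4.98 points (value −4.98). Klf6 was lower in the high cells of liver and higher in those of spleen (−3.26 points) and lymph node (−6.57 points). For cells with a trafficking-list UMI, Klf10 and Klf13 were higher in spleen and lower in lymph node, apart by 3.58 and 4.28 points.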

How the results depend on the processing

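The number of genes called between liver and spleen was 2611, and between spleen and lymph node 1861. DESeq2 gave 1423 and 1126, and over leaving out 1 library each the counts ran from 1372 to 2405 for liver with spleen, 2408 to 4030 for liver with lymph node and 1025 to 1933 for spleen with lymph node. The lowest of these followed from leaving out liver replicate 1 (1373), spleen replicate 2 (1372) or lymph node replicate 2. Calls higher in liver than spleen made up 49.4% of calls, and 63.3% with no scaling beyond the library total, which was chosen after seeing the data.

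No Klf2 or Klf3 difference between organs changed by more than its replicate spread. Klf4 moved to −0.87 (liver over spleen) and −5.50 (liver over lymph node) when libraries were thinned to one total. Leaving out 1 library, the Klf4 fold ran from −0.76 to −0.39 for liver over spleen and from −4.82 to −4.45 for spleen over lymph node, Klf6 from 0.55 to 0.99 for liver over spleen and from −1.05 to −0.62 for spleen over lymph node, Klf10 from −1.43 to −0.99 and from −1.71 to −1.28, and Klf13 from −0.23 to 0.11 (liver over spleen) and from −0.87 to −0.53 (liver over lymph node). The Klf13 liver-over-spleen value crossed 0 with the library left out, and the cause of these shifts was not tested. The median log2 ratio of Klf2 in Gzma-like cells was 0.55 at resolution 0.3 and 1.57 at resolution 1.0, and in RTE-like cells 2.32 without regression; RTE-like cells were named in 2 of the 4 other clusterings. Of 405 counts of called list genes under alternatives, 348 stayed within 1.5 times.

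Replicate numbers were not shown to pair samples, since deviations of same-numbered libraries correlated at 0.086, 0.083 and 0.068. With a replicate block 3036, 4139 and 2113 genes were called. Depth limits Klf4 outside lymph node and every class of few cells.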
